A study of Mus musculus with 36 samples.

Results

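The genes described are 9 components and early targets of transforming growth factor beta (TGF-beta) and bone morphogenetic protein (BMP) signalling: the ligands Tgfb1, Tgfb2, Tgfb3 and Bmp4, the inhibitory SMADs Smad6 and Smad7, and the target genes Id1, Id2 and Id3. They were taken by symbol for their place in the pathway, with earlier results of these data known. They were 9 of the 49315 genes in the files. All 9 had enough counts to enter the test, which covered 11558 genes. They were followed across 18 libraries of polyadenylated RNA from C2C12 cells, an established mouse myoblast line kept proliferating on Thermanox coverslips in sealed experiment units.

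The cells were cultured without nanoceria (untreated below) or with nanoceria (treated), which are cerium oxide nanoparticles, loaded at 100 µg/ml in the medium reservoir. Each condition was run in 3 regimes that the labels call in space without gravity, in space with gravity and on land, with 3 libraries in each of the 6 groups. Units were held at 37 °C in the incubator and fixed with RNAlater. The ground units were a repeat run in the same hardware after the flight, so regime and run cannot be told apart between space and land. The labels name 3 experiment units per class and do not say whether these came from separate cultures before loading, so p-values measure the spread between these units. Replicate numbers below follow the order of the records and tie no libraries across groups.

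TGF-beta and BMP ligands bind pairs of serine/threonine kinase receptors on the cell surface, which phosphorylate receptor-regulated SMADs. TGF-beta receptors act mainly through SMAD2 and SMAD3 and BMP receptors through SMAD1, SMAD5 and SMAD9, each with the shared partner SMAD4. In myoblasts BMP signalling raises Id genes, whose products bind E proteins and hold back MyoD-driven differentiation, and both branches induce the inhibitory SMADs that damp the receptors.

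The promoter sequences of 3 members are shown because they carry different SMAD-type motifs. Id3 was the single member that passed the adjusted threshold in any comparison, Id2 was the most abundant member, and Smad6 held the rarest motif. Each run covers 250 bases before and 50 after the transcription start in the RefSeq table of build GRCm38.p6, written 5′ to 3′ on the gene's strand, with motif matches in capitals. The Id3 window is chr4:136143572-136143871 on the plus strand, the Id2 window chr12:25096043-25096342 on the minus strand, and the Smad6 window chr9:64022010-64022309 on the minus strand. The motifs searched on both strands were the palindromes GTCTAGAC and GGCGCC and the shorter CAGAC, whose reverse complement is GTCTG.
Id3: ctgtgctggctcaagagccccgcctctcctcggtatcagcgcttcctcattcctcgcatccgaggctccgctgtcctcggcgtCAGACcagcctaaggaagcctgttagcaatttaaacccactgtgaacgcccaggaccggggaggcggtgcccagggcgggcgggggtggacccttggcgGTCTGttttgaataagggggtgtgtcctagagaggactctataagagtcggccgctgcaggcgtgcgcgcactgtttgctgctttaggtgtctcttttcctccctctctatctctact
Id2: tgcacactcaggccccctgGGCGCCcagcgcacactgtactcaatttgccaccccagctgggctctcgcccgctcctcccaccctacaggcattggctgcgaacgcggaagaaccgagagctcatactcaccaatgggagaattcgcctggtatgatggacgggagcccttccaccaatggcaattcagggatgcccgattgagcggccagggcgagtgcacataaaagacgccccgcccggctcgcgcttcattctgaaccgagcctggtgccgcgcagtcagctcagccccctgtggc
Smad6: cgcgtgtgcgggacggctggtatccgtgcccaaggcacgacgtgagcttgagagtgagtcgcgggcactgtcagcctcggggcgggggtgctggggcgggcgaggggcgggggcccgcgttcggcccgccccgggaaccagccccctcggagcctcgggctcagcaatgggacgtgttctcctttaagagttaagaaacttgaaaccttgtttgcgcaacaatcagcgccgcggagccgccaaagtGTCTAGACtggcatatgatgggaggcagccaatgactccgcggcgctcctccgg

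Of the 9 members, 6 matched the table: Bmp4, Id2, Id3, Smad6, Tgfb1 and Tgfb2. GTCTAGAC was found once in the Smad6 window and in 0.213% of the 32851 promoter windows of this length. GGCGCC was found once in the Id2 window and in 11.9% of all windows. CAGAC was found 2 times in the windows of Id3 and of Tgfb2, and in 49.6% of all windows. The windows of Bmp4 and Tgfb1 held none of these letters. A match describes the letters of the window and is no evidence of binding.

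Counts per library bear on every value below. Of the 18 libraries, 17 held between 2986628 and 11378178 counts, and 3 counts corresponded to between 0.193 and 1.11 CPM in them (counts per 1e+06, after TMM scaling of library sizes). The remaining library, the third with nanoceria in space with gravity, had a total of 23858, so that 3 counts were 35.7 CPM. It stayed in the fits, is given apart in the text, and each result was also computed without it. The 6 most abundant genes, Lars2, Gm23935, Gm15564, Gm24270, Gm24187 and Gm25911, took 49.6% to 76.3% of counts on land, 23.8% to 54.4% in space with gravity and 40.7% to 70.3% in space without gravity. A fit that includes this share as a covariate is given beside the Id3 call and the pathway counts.

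The cell line was checked against its markers. Myf5 and Des, a myoblast transcription factor and the muscle intermediate filament desmin, had counts in all 17 libraries. Their medians were 50.5 and 86.6 CPM. Myod1, which encodes the defining factor of the myoblast lineage, was low, with a median of 0.158 CPM and counts in 9 of 17 libraries. The remaining genes of the myoblast list were also low. Vcam1 had a median of 1.46 CPM, Cdh15 of 0.797 CPM and Pax7 of 0.319 CPM, with counts in 17, 15 and 14 libraries. Myog, the marker of commitment to fusion, had counts in 5 of 17 libraries. Of the other differentiated myotube markers, Acta1 had counts in 17, Tnnt3 in 12 and Mymk in 11 libraries. Myh3, Ckm, Myh8 and Mymx had counts in 7, 4, 2 and 1. The 8 myotube-list genes summed to 1.40 to 17.8 CPM in space without gravity and 0.659 to 10.7 CPM in space with gravity. On land they summed to 3.32 to 94.4 CPM, highest in land untreated replicate 1. The defining osteoblast gene Sp7 and the adipocyte gene Adipoq were at 0 in the 17 libraries, whereas the osteoblast-list genes Runx2 and Bglap and the adipocyte-list gene Cebpa had counts in all 17. Summed over its 6 genes, the osteoblast list ranged from 4.08 to 22.9 CPM in space without gravity, from 8.23 to 14.8 CPM in space with gravity and from 4.01 to 26.7 CPM on land. The 4 adipocyte-list genes summed to 1.96 to 3.22, 2.06 to 8.13 and 5.18 to 30.3 CPM in the same order. Cebpa, a transcription factor of adipocyte differentiation, fell by 2.04 ± 0.52 in space with gravity against land (adjusted p = 0.0179, edgeR) and fell by 2.31 ± 0.49 in space without gravity against land (adjusted p = 0.0192). It was at -1.45 (adjusted p = 0.0505) and -1.73 (adjusted p = 0.0535) without land with nanoceria replicate 3. With each compared library left out in turn, the Cebpa calls were lost in 2 and 5 of 12 fits. With the dominant-gene share in the model Cebpa was not called in space with gravity. Of the 2 osteoblast-list genes tested, Bglap, at a median of 0.891 CPM, was also called lower in space with gravity. Runx2, the other, lay higher there at an unadjusted p under 0.05 (edgeR). The Bglap call was lost without the smallest library, without land with nanoceria replicate 3 and without land untreated replicate 3. It was also lost with the dominant-gene share in the model. The call was kept with the DESeq2 test and with DESeq2 size factors from genes counted in every library. The part of these markers in the results against land was not tested.

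**Figure D1:**
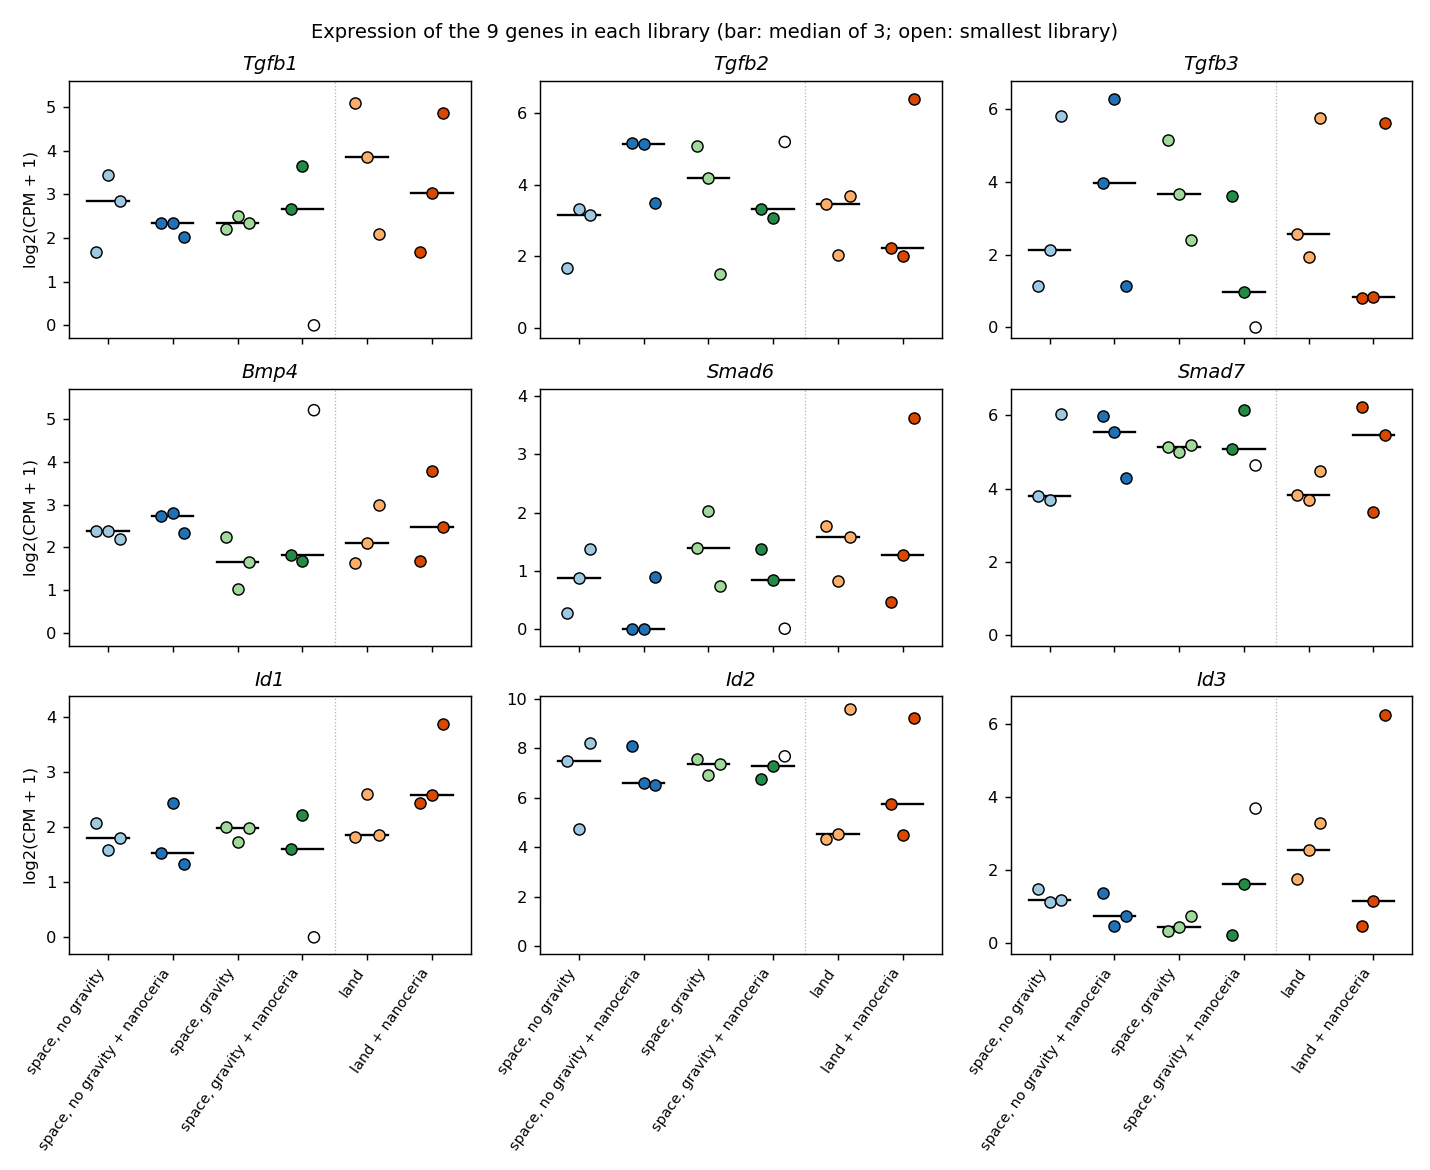
Expression of the 9 genes in each library, as log2(CPM + 1), with 3 libraries per group, a bar at each group's median, an open circle for the library of 23858 counts and a dotted line between space and land. Land with nanoceria replicate 3 is the highest of the 17 deeper libraries for Tgfb2, Smad6, Id1 and Id3, at 83.7, 11.4, 13.7 and 76.2 CPM.

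Levels differed widely between the 9 genes when CPM was divided by gene length. Over the 17 deeper libraries the median level was 94.5 CPM per kb for Id2 and 7.23 CPM per kb for Smad7. It was 2.56 for Id1, 1.68 for Bmp4, 1.56 for Tgfb2, 1.45 for Tgfb3, 0.921 for Tgfb1, 0.671 for Id3 and 0.264 CPM per kb for Smad6. Id2 ranged from 15.1 to 604 CPM per kb and Smad7, next in order, from 2.04 to 16.4. The ranges of neighbours overlapped throughout this order. Within single libraries Id2 was above Smad7 in 17 of 17, while in each of the other neighbouring pairs the order was not kept in 3 to 8 of the 17 libraries. Levels also varied widely between libraries. Over all 6 groups the highest CPM of Id3 was 481 times its lowest, which rested on 2 counts (95% counting interval 132 to 3995, exact binomial). For Tgfb3, again from a lowest value of 2 counts, the ratio was 102 (27.8 to 846). It was 46.2 for Tgfb2 and 39.9 for Id2, and between 8.03 (Smad7) and 15.1 (Tgfb1) for Smad7, Id1, Bmp4 and Tgfb1. Smad6 ran down to 0 counts.

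The ligands were expressed at low and uneven levels. Tgfb1 (ENSMUSG00000002603, chr7:25687002-25705077, plus strand) encodes the ligand best known for holding back myoblast differentiation. Tgfb1 was 2.21, 9.90 and 6.24 CPM in untreated and 4.08, 4.08 and 3.05 CPM in nanoceria-treated libraries of space without gravity. It was 3.61, 4.64 and 4.12 CPM in untreated libraries of space with gravity, 5.38 and 11.6 CPM in treated ones, and 0 counts in the smallest library. Land gave 33.3, 13.6 and 3.29 CPM untreated and 2.22, 7.21 and 28.3 CPM treated. The 3 highest Tgfb1 libraries were all land libraries, and land also held values as low as those of space, so the regimes overlapped.

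Tgfb2 (ENSMUSG00000039239, chr1:186622792-186705989, minus strand), a second ligand of the same receptors, ranged from 1.81 to 35.1 CPM in the space libraries of full depth and from 3.01 to 83.7 CPM on land. Its land value of 83.7 CPM came from land with nanoceria replicate 3, and the other land libraries lay at or below 11.8 CPM. Tgfb3 (ENSMUSG00000021253, chr12:86056744-86079041, minus strand), the third isoform, was the most erratic. Space without gravity gave 1.20, 3.36 and 54.4 CPM untreated and 14.6, 75.4 and 1.19 CPM treated. The deeper libraries of space with gravity gave 34.6, 11.5 and 4.28 CPM untreated and 11.1 and 0.956 CPM treated. Land gave 4.91, 2.81 and 52.6 CPM untreated and 0.740, 0.801 and 47.5 CPM treated. High and low Tgfb3 libraries thus occurred within single groups, in all 3 regimes.

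Bmp4 (ENSMUSG00000021835, chr14:46383520-46390669, minus strand), the BMP ligand of the set, was the steadiest in space without gravity, from 3.56 to 5.94 CPM over 6 libraries. It was 1.03 to 3.74 CPM in the 5 deeper libraries of space with gravity and 2.11 to 12.8 CPM on land. These 3 ranges overlapped. The smallest library showed 3 counts of Bmp4, or 35.7 CPM. Bmp4 shares 89 of its 2224 exon bases with Gm15217 on the opposite strand. Use of strand in counting is not given in the sources used here, so their reads cannot be told apart in that stretch; Gm15217 had 44 counts in all and Bmp4 410.

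The make-up of the 3 TGF-beta isoforms changed from library to library. Per length, Tgfb3 was the most abundant isoform in 7 of 17 libraries, Tgfb1 in 6 and Tgfb2 in 4. The share of Tgfb1 in the summed isoforms ranged from 2.80% to 67.5%, that of Tgfb2 from 7.26% to 65.1% and that of Tgfb3 from 7.33% to 86.1%. The Id family was uniform by comparison. Id2 was the most abundant Id gene in 17 of 17 libraries, at 70.9% to 98.8% of the summed Id level per length, while Id1 held 0.371% to 19.6% and Id3 0.0948% to 11.1%.

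**Figure D2:**
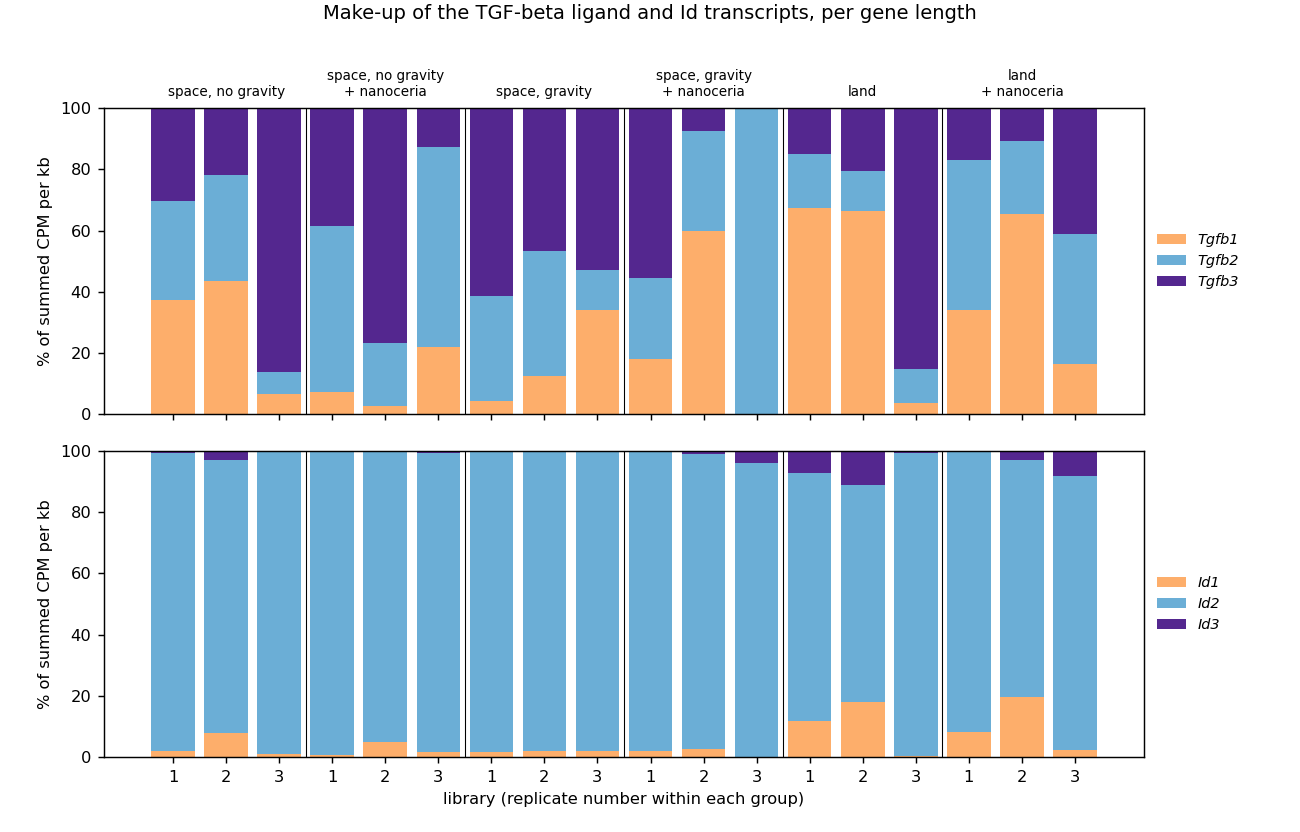
Share of each isoform in the summed CPM per kb of Tgfb1, Tgfb2 and Tgfb3 (top) and of Id1, Id2 and Id3 (bottom), 1 bar per library in percent. The leading TGF-beta isoform varies within groups, whereas Id2 takes 70.9% to 98.8% of the Id level in the 17 deeper libraries.

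Smad7 (ENSMUSG00000025880, chromosome 18, plus strand) encodes the inhibitory SMAD that blocks both receptor branches. Smad7 was 13.0, 11.9 and 64.5 CPM in untreated and 62.7, 46.0 and 18.5 CPM in treated libraries of space without gravity. Untreated libraries of space with gravity gave 34.2, 30.9 and 35.4 CPM, and treated ones 32.7 and 70.3 CPM beside 2 counts in the smallest library. Land gave 13.2, 12 and 21.4 CPM untreated and 74.0, 9.22 and 43.6 CPM treated. The untreated land libraries were low and close together and the untreated libraries of space with gravity higher and close together. In the other groups high and low libraries occurred side by side.

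Smad6 (ENSMUSG00000036867, chr9:63953076-64022059, minus strand), the inhibitor that acts mainly on the BMP branch, was near the limit of detection. It had 1, 5 and 9 counts untreated and 0, 0 and 5 treated in space without gravity. The libraries of space with gravity had 25, 36 and 4 counts untreated and 20, 5 and, in the smallest library, 0 treated. Land libraries had 17, 3 and 6 counts untreated and 1, 7 and 35 treated. All 3 regimes overlapped. The 2 deep libraries at 0 counts allow up to 3 counts, or 0.437 and 1.11 CPM, by counting error alone.

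Id1 (ENSMUSG00000042745, chr2:152736251-152737410, plus strand) is the classic direct target of BMP-activated SMADs. It was 1.52 to 4.45 CPM in space without gravity, 2.06 to 3.67 CPM in the 5 deeper libraries of space with gravity and 2.53 to 13.7 CPM on land, from between 8 and 47 counts per library. Its medians in the 3 regimes were 2.25, 2.96 and 4.73 CPM. The land range began inside both space ranges, and the highest land value again came from land with nanoceria replicate 3.

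Id2 (ENSMUSG00000020644, chr12:25093801-25096092, minus strand) encodes the Id protein that was best covered here, with 86 to 2937 counts in the deeper libraries. It was 176, 25.3 and 294 CPM untreated and 272, 94.3 and 89.5 CPM treated in space without gravity. Space with gravity gave 189, 120 and 165 CPM untreated and 106 and 154 CPM in the deeper treated libraries. Land gave 19.2, 22.0 and 767 CPM untreated and 53.3, 21.6 and 588 CPM treated. The land libraries thus split into 4 at or below 53.3 CPM, below all 5 deeper libraries of space with gravity, and 2 above every space library.

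Id3 (ENSMUSG00000007872, chr4:136143497-136145755, plus strand) encodes a further Id protein, and its promoter window lies inside this span. Its counts in space without gravity were 9, 7 and 7 untreated and 11, 1 and 4 treated, or 1.80, 1.17, 1.25, 1.60, 0.371 and 0.677 CPM. Space with gravity gave 4, 4 and 4 counts untreated and 2, 13 and 1 treated, or 0.258, 0.344, 0.659, 0.158 and 2.07 CPM in the deeper libraries. Land gave 17, 19 and 27 counts untreated and 1, 6 and 234 treated, or 2.39, 4.86, 8.87, 0.370, 1.20 and 76.2 CPM. The untreated land libraries lay between 2.39 and 8.87 CPM and the untreated space libraries between 0.258 and 1.80 CPM. The land libraries with nanoceria spread from 1 to 234 counts and overlapped both space regimes.

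Against land, Id3 was lower in both space regimes. In space with gravity, with both nanoceria levels averaged, Id3 fell by 3.95 ± 1.08 (log2 fold change ± SE, edgeR quasi-likelihood test, Benjamini-Hochberg adjusted p = 0.0246). It was the 1 member of 9 that passed, in a comparison where 14.0% of all tested genes passed and 6.74% passed as lower. The counterpart for space without gravity was that Id3 fell by 3.32 ± 0.95 (adjusted p = 0.0499 in the same test), again the 1 member of 9 that passed, against 5.25% of all tested genes and 2.44% as lower. Both comparisons use the same 6 land libraries, so they are not independent of each other. A share of 1 in 9 is 1 gene and says nothing of the set as a whole.

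The Id3 call was not stable when libraries were left out, and 1 library set most of its size. Without land with nanoceria replicate 3, the difference was -1.40 ± 0.77 (adjusted p = 0.243, edgeR) in space with gravity against land and -0.86 ± 0.71 (adjusted p = 0.509) in space without gravity against land. That library held 3885941 counts, with 64.1% in the dominant genes, and had the highest summed myoblast markers on land, 537 CPM against 101 to 287 CPM in the other land libraries. Its summed osteoblast markers were 26.7 CPM against 4.01 to 13.8 CPM, and its summed adipocyte markers 30.3 CPM against 5.18 to 16.3 CPM. Its summed myotube markers, at 7.16 CPM, lay inside the 3.32 to 94.4 CPM of the other land libraries. The part of these differences in the Id3 result was not tested. The call was lost in 4 of 12 fits that each left out 1 of the compared libraries in space with gravity against land, and in 10 of 12 in space without gravity against land. In the former these were that land library, untreated replicates 1 and 2 and nanoceria replicate 1 of space with gravity, and in the latter all but land with nanoceria replicates 1 and 2. With the dominant-gene share in the model the Id3 difference was -4.58 ± 1.53 (adjusted p = 0.232) and -3.66 ± 1.12 (adjusted p = 0.163). Without the library of 23858 counts both calls were kept, at -4.13 (adjusted p = 0.0239) and -3.34 (adjusted p = 0.0496).

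**Figure D3:**
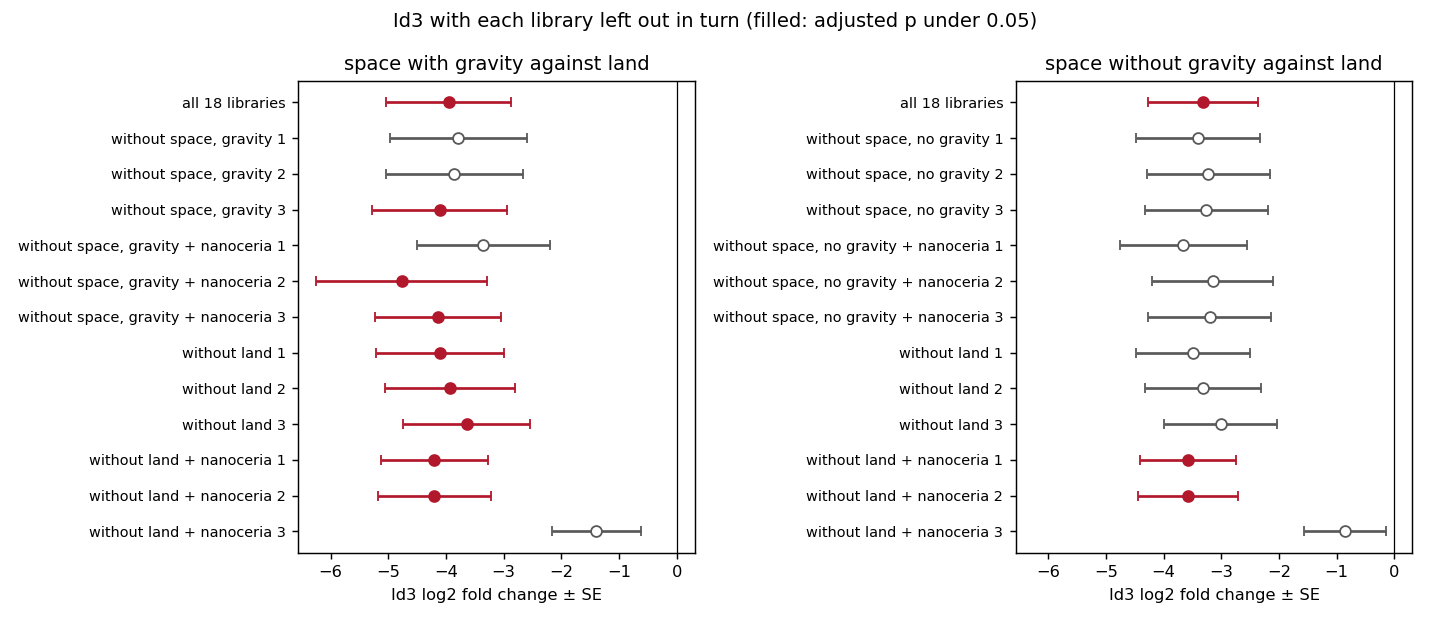
Fitted log2 fold change of Id3 with its SE, for all 18 libraries and with each of the 12 compared libraries left out in turn, with filled points where the adjusted p is under 0.05. Leaving out land with nanoceria replicate 3 moves the estimate from -3.95 to -1.40 in space with gravity against land and from -3.32 to -0.86 in space without gravity against land.

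Split by nanoceria, no member passed in any of the 4 comparisons of a space regime with land. Untreated, Id3 differed by -3.67 ± 1.40 (adjusted p = 0.151, edgeR) in space with gravity and by -1.90 ± 1.29 (adjusted p = 0.546) in space without gravity. With nanoceria the differences were -4.24 ± 1.65 (adjusted p = 0.172) and -4.75 ± 1.42 (adjusted p = 0.109). At an unadjusted p under 0.05, 2 members passed untreated and 2 with nanoceria in space with gravity, where 21.5% and 20.5% of all genes did. For space without gravity these were 0 and 3 members, where 13.0% and 19.2% of all genes did. The adjusted threshold was passed by at most 0.0433% of all genes in these 4 comparisons, and by 0.00865% with nanoceria in space with gravity.

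The other 8 members did not pass against land, and most lay on the lower side. Tgfb1 differed by -1.37 ± 0.61 in space with gravity (adjusted p = 0.131, edgeR) and by -1.60 ± 0.60 in space without gravity (adjusted p = 0.110). Smad6 differed by -0.91 ± 0.82 (adjusted p = 0.472) and -2.33 ± 0.86 (adjusted p = 0.106), from the few counts given above. Id1 differed by -0.90 ± 0.45 (adjusted p = 0.177) and -1.0 ± 0.44 (adjusted p = 0.166). Smad7 lay on the higher side, by 0.61 ± 0.53 and 0.48 ± 0.52. Id2, Tgfb2, Tgfb3 and Bmp4 lay between -0.88 and 0.43 in these comparisons, each within 1 SE of 0. The Id2 difference in space with gravity turned to 1.22 without land untreated replicate 3 and to 0.62 without land with nanoceria replicate 3, and in space without gravity to 1.27 and 0.67. The sign turned under at least 1 other setting for Id2, Tgfb2 and Tgfb3 in both comparisons, and in space with gravity also for Tgfb1 and Smad6. In space without gravity it also turned for Bmp4 and for Smad7, which was at -0.14 without untreated replicate 3 of space without gravity. Over the 9 members the median log2 fold change was -0.88 in space with gravity and -0.62 in space without gravity, beside -0.04 and -0.02 over all genes tested. Without land with nanoceria replicate 3 the members' medians were 0.22 and -0.27, beside 0.05 and 0.06 over all genes, so the lower side of the set in space with gravity was not kept. At an unadjusted p under 0.05, 2 of 9 and 4 of 9 members passed, where 31.9% and 24.7% of all genes did.

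**Figure D4:**
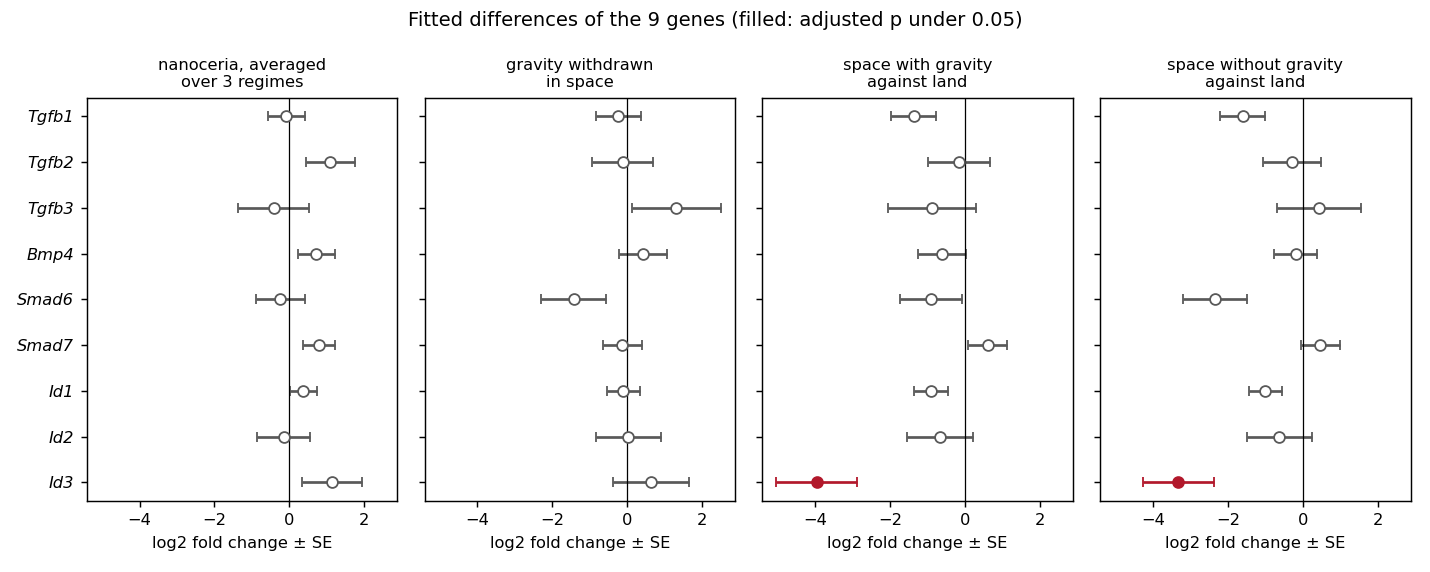
Fitted log2 fold change with its SE for the 9 genes in the 4 averaged comparisons over 18 libraries, with filled points where the adjusted p is under 0.05. Id3 against land is filled in both space regimes, at -3.95 and -3.32, and no other point is.

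Nanoceria gave no call among the 9 genes. Averaged over the 3 regimes, 0 of 9 members passed by edgeR, DESeq2 or limma voom, and 0 of 9 had an unadjusted p under 0.05 by edgeR, where 0% of all tested genes passed the adjusted threshold and 6.54% the unadjusted one. The differences, with nanoceria minus without, ranged from -0.42 ± 0.95 for Tgfb3 to 1.15 ± 0.80 for Id3. Smad7 was at 0.79 ± 0.43 (adjusted p = 0.772, edgeR) and Tgfb2 at 1.10 ± 0.66 (adjusted p = 0.783). Tgfb2 was at 0.047 and Id3 at -0.46 without land with nanoceria replicate 3. Bmp4 was at 0.73 ± 0.50 and Id1 at 0.37 ± 0.36. Within single regimes, 0 of 9 passed in each of the 3 regimes and 0 had an unadjusted p under 0.05, where 3.97%, 4.46% and 10.2% of all genes did in space without gravity, in space with gravity and on land. The values closest to the threshold on land were Smad7 at 1.44 ± 0.75 (adjusted p = 0.518, edgeR), Id1 at 1.17 ± 0.61 (adjusted p = 0.525) and Id3 at 2.28 ± 1.25 (adjusted p = 0.543). A test of whether the nanoceria difference itself varied between regimes called 0 of 9 members at an adjusted or unadjusted threshold, where 0% and 6.14% of all genes passed, and the smallest adjusted p was 0.908 for Tgfb2 (edgeR).

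Within space, removing gravity gave no call either. Averaged over nanoceria, 0 of 9 members passed by edgeR, DESeq2 or limma voom, and 0 had an unadjusted p under 0.05 by edgeR, where 0% and 5.85% of all genes did at the adjusted and unadjusted thresholds. The differences, without minus with gravity, ranged from -1.43 ± 0.87 for Smad6 (adjusted p = 0.925, edgeR) to 1.31 ± 1.19 for Tgfb3 (adjusted p = 0.972). Id1, Id2, Smad7 and Tgfb2 lay between -0.13 and 0.03, with SEs of 0.45, 0.88, 0.52 and 0.81. Id3 was at 0.63 ± 1.02 and Bmp4 at 0.43 ± 0.64. In untreated cells and in cells with nanoceria taken apart, 0 of 9 members passed and 0 had an unadjusted p under 0.05, where 4.05% and 5.78% of all genes did. SEs of this size leave room for changes of several fold in single genes. In these bulk libraries, fewer cells expressing a gene and less RNA per cell cannot be told apart.

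The other genes of the pathway were read from 7 lists by role, 91 genes in all with the members and 67 tested. These lists were chosen with earlier results of these data known, so their shares are given as a description only. Against land, 4 passed in space with gravity as higher and 10 as lower, Id3 among them, which is 20.9% of the 67 beside 14.0% of all genes. Their median log2 fold change was -0.74 beside -0.04. Space without gravity had 2 higher and 4 lower, 8.96% beside 5.25% of all genes, with a median of -0.40. Nanoceria and gravity withdrawal called 0 of 67 each, with 2 of 67 each at an unadjusted p under 0.05. Of all genes 0% passed the adjusted threshold in these, and 6.54% and 5.85% the unadjusted one. Without land with nanoceria replicate 3, the pathway calls numbered 7 and 0 of 68 in the comparisons with land, and the medians were -0.31 and -0.0073. Calls over all 12286 genes also fell there, to 559 higher and 468 lower in space with gravity and 53 and 46 in space without gravity. With the dominant-gene share in the model the pathway calls were 0 and 0, where all genes gave 1 call in space with gravity.

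Among the ligands 0 of 9 tested genes passed against land, where 14.0% and 5.25% of all genes did. Of 10 tested receptors 2 rose in space with gravity and 2 in space without gravity, where 834 and 325 of all 11558 genes did. Bmpr2, the type II BMP receptor, rose by 2.07 ± 0.49 (adjusted p = 0.0141, edgeR) and 1.84 ± 0.48 (adjusted p = 0.0368), from a median of 13.4 CPM on land to 59.8 and 67.7 CPM, with ranges that overlapped. Tgfbr3, the coreceptor betaglycan, rose by 2.19 ± 0.71 in space with gravity (adjusted p = 0.0470) and was at 2.19 ± 0.71 in space without gravity (adjusted p = 0.0731). Tgfbr1, the type I TGF-beta receptor, was at 1.44 ± 0.65 (adjusted p = 0.137) and rose by 2.42 ± 0.65 in space without gravity (adjusted p = 0.0418). The type II receptor Tgfbr2 was at -0.36 ± 0.45 and -0.03 ± 0.45 and the type I receptor Bmpr1a at 0.58 ± 0.45 and 0.39 ± 0.44, none of them past the threshold. With 1 library left out, the calls of Tgfbr1 and Bmpr2 in space without gravity and of Tgfbr3 in space with gravity were each lost in 9 of 12 fits. In space without gravity the Tgfbr1 call was also lost without the smallest library, which is not among those 12. The Bmpr2 call was kept there. The Bmpr2 call in space with gravity was lost in 1 fit, without nanoceria replicate 1 of that regime (adjusted p = 0.0736).

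Of 5 tested SMAD transducers 1 rose in space with gravity, where 834 of all 11558 genes did, and 0 in space without gravity. Smad5, a transducer of the BMP branch, was 77.6, 71.0 and 58.8 CPM in untreated and 103 and 53.9 CPM in nanoceria-treated deeper libraries of space with gravity. Its 6 land libraries lay between 10.5 and 18.9 CPM. How many of all tested genes lie as far apart was not counted, here or for Id3, Thbs1 and Junb. The fitted difference of Smad5 was 2.25 ± 0.51 (adjusted p = 0.0116, edgeR), and in space without gravity 1.63 ± 0.50 (adjusted p = 0.0609), where values ran from 6.94 to 148 CPM. The call in space with gravity held in each fit that left out 1 library. Of the 9 tested intracellular inhibitors and corepressors, the list that includes Smad6 and Smad7, 0 passed in either comparison. At an unadjusted p under 0.05, 3 and 2 passed, where 31.9% and 24.7% of all genes did.

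Extracellular antagonists and latency proteins included 1 higher and 4 lower genes of 15 tested in space with gravity, and 1 lower in space without gravity. Of all tested genes 14.0% and 5.25% were called. Nbl1, a secreted BMP antagonist, fell by 2.82 ± 0.53 (adjusted p = 0.00656, edgeR) and fell by 2.27 ± 0.51 (adjusted p = 0.0219). It had medians of 75.3 CPM on land, 11.9 CPM in space with gravity and 20.3 CPM in space without gravity. Grem1, the BMP antagonist gremlin, fell by 1.92 ± 0.45 in space with gravity (adjusted p = 0.0129) and was at -0.78 ± 0.43 in space without gravity. Both genes kept their call in space with gravity with each library left out in turn, whereas the Nbl1 call in space without gravity was lost in 7 of 12 fits. Thbs1, thrombospondin 1, an activator of latent TGF-beta, fell by 3.66 ± 0.87 in space with gravity (adjusted p = 0.0146), from 108 to 3456 CPM on land to 31.5 to 95.4 CPM in the deeper libraries. It was at -1.91 without land untreated replicate 3, and did not pass without nanoceria replicate 1 of space with gravity (adjusted p = 0.0570). The space-without-gravity libraries of Thbs1 lay at 74.6 to 413 CPM. Ltbp1, which tethers latent TGF-beta to the matrix, rose by 2.95 ± 0.93 in space with gravity (adjusted p = 0.0429), a call lost in 9 of 12 fits that left out 1 library. The remaining gene, Bgn, for the proteoglycan biglycan, fell by 1.97 ± 0.64 (adjusted p = 0.0490), a call lost in 8 of 12 such fits. It is outside the rule for named genes and was added after its value was seen.

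Target genes of the TGF-beta branch included 4 lower and 0 higher of 17 tested in space with gravity and 1 lower and 0 higher in space without gravity. Of all tested genes 6.74% and 2.44% were called lower. Junb, an AP-1 subunit induced early by TGF-beta, fell by 1.50 ± 0.37 (adjusted p = 0.0162, edgeR) and fell by 1.42 ± 0.36 (adjusted p = 0.0333). Its 6 libraries in space without gravity lay at 12.3 to 20.7 CPM and the 6 land libraries at 24.6 to 84.8 CPM. The deeper libraries of space with gravity lay at 9.66 to 32.4 CPM. With 1 library left out the Junb call was lost in 9 of 12 fits in space without gravity, and in 1 in space with gravity, without nanoceria replicate 1 (adjusted p = 0.0646). Junb shares 173 of its 2301 exon bases with Prdx2 on the opposite strand, so reads in that stretch cannot be told apart. Prdx2 had 3222 counts in all and Junb 2322. The matrix genes Col1a1 and Postn fell by 4.82 ± 1.14 (adjusted p = 0.0140) and 5.27 ± 1.36 (adjusted p = 0.0201) in space with gravity. Without land with nanoceria replicate 3 they were at -2.75 and -2.68 and did not pass, and in all the calls were lost in 2 and 3 of 12 fits. Postn had 0 to 92 counts per deeper library, and Col1a1 was at 1750 CPM in its highest land library beside a land median of 77.2 CPM. Timp1, a metalloproteinase inhibitor, fell by 1.57 ± 0.48 (adjusted p = 0.0376), a call lost in 7 of 12 fits that left out 1 library. The textbook target Ccn2 was at -0.86 ± 0.67 (adjusted p = 0.399) in space with gravity and at 0.06 ± 0.66 in space without gravity.

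Of 8 tested BMP target genes, the list that holds the 3 Id genes and Smad6, 3 fell in space with gravity and 2 in space without gravity, and 0 rose. They were Id3, Grem1 and Msx1 in the first and Id3 and Msx1 in the second. Of all tested genes 6.74% and 2.44% were called lower in the same order. Msx1, a homeobox gene induced by BMP, fell by 1.92 ± 0.52 (adjusted p = 0.0239, edgeR) and fell by 2.36 ± 0.52 (adjusted p = 0.0215). Its land values were 6.32, 1.79 and 4.60 CPM untreated and 21.5, 8.82 and 62.2 CPM treated, around a median of 7.57 CPM. Its medians in space were 1.72 and 2.28 CPM. Split by nanoceria, Msx1 passed in none of the comparisons with land. Untreated it was at -1.58 (adjusted p = 0.212, edgeR) and -1.09 (adjusted p = 0.533), and treated at -2.26 (adjusted p = 0.132) and -3.62 (adjusted p = 0.0725). Without land with nanoceria replicate 3 Msx1 was at -1.39 and -1.84 and passed in neither, and with each library left out in turn its calls were lost in 6 and 5 of 12 fits. The list's median was -1.41 in space with gravity and -1.67 in space without gravity, and -0.16 and -0.55 without that land library.

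**Figure D5:**
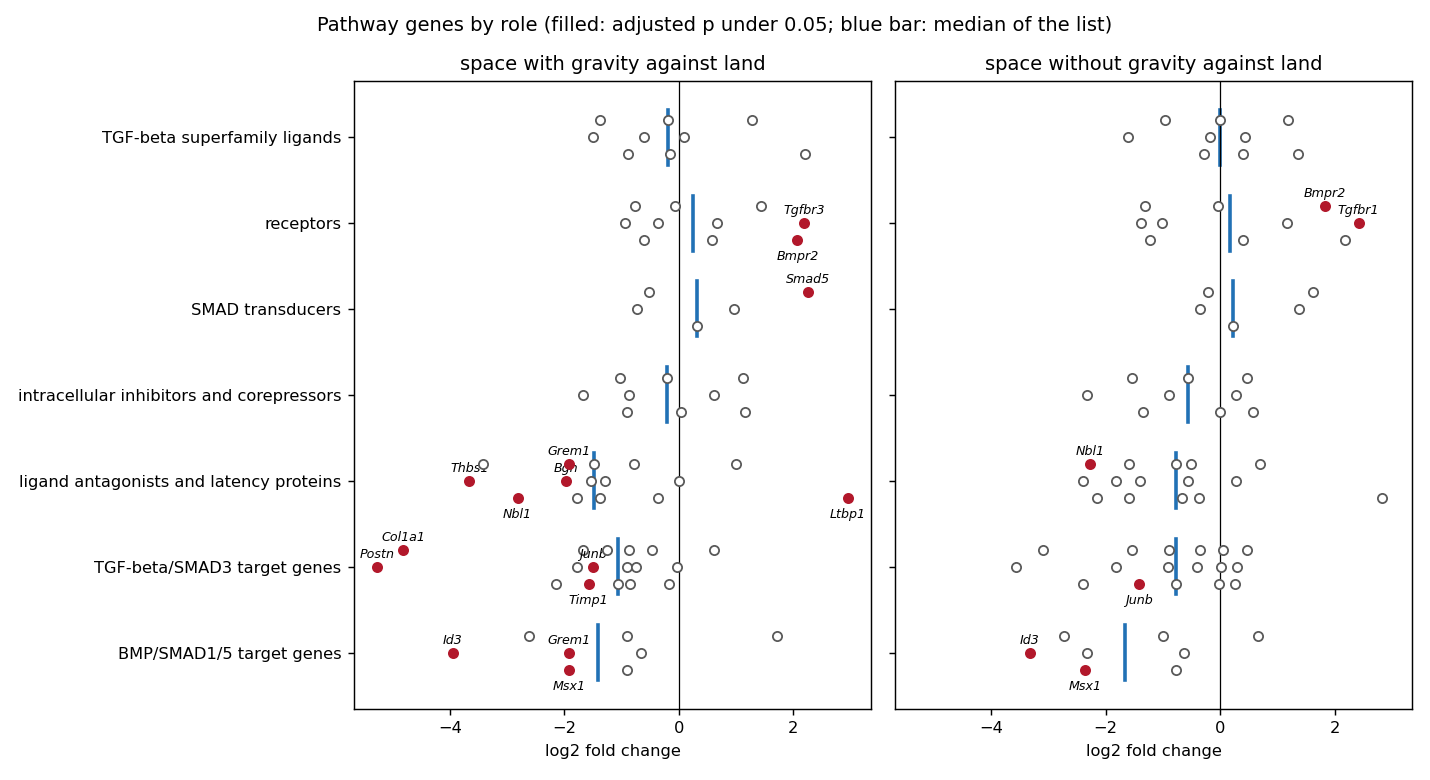
Log2 fold change of each tested gene of the 7 pathway lists against land, 1 line per role, with filled and named points where the adjusted p is under 0.05 and a blue bar at the median of each list. Receptors and Smad5 lie on the right among the filled points, and the filled antagonists and targets other than Ltbp1 lie on the left, with list medians of -1.48, -1.06 and -1.41 for antagonists, TGF-beta targets and BMP targets in space with gravity and of -0.60, -0.50 and -0.16 without land with nanoceria replicate 3.

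The genes whose profile across the 17 deeper libraries was most like each member were taken from 6126 well-covered genes, by Pearson correlation of log2 CPM. They were Sept5 for Tgfb1 (r = 0.910), Palld for Tgfb2 (0.820), Prcp for Tgfb3 (0.873) and Ephb4 for Bmp4 (0.816). For the inhibitory SMADs they were Foxc1 for Smad7 (0.826) and Trp53inp2 for Smad6 (0.837). For the Id genes they were Cwc15 for Id1 (0.887), Pik3r1 for Id2 (0.913) and Tsc22d1 for Id3 (0.896). These are the highest of many correlations over 17 libraries that share depth and composition effects, and are given as a description only.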

How the data were processed

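The deposited files held raw read counts per gene, 1 library per file, per the file headers. The submitters' processing notes name CASAVA, Trimmomatic 0.36.29, STAR, Subread and featureCounts, with build GRCm38.p6. Settings for strand and multiply mapped reads are not given in the sources used here. The 18 small RNA samples were not analysed here.

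Counts were filtered with filterByExpr over the 6 groups (11558 of 49315 genes kept), given TMM scaling factors (a trimmed mean of log ratios between libraries) and fitted in edgeR 4.0.16 (R 4.3.3) with a group-means model over all 18 libraries. The robust quasi-likelihood F-test was used, with 12 residual degrees of freedom and Benjamini-Hochberg adjustment over all tested genes at 0.05. The SE is the log2 fold change divided by the square root of F. CPM values use the TMM-scaled totals. Alternatives used limma 3.58.1 (voom) and DESeq2 1.42.0. Scripts were tested on simulated data. In space with gravity against land, 28% of simulated 4-fold and 74% of 8-fold changes were recovered at 50 genes each among 11558. In space without gravity against land these shares were 36% and 70%.

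The 9 members, the 7 pathway lists and the marker lists were chosen with earlier results of these data known. Pathway genes were named if past the threshold in an averaged comparison and at or above 1 in average log2 CPM, at most the 4 of each list with the smallest p. Tgfbr1, Tgfbr2, Bmpr1a, Bmpr2 and Ccn2 were named whatever their values, and a further gene of that rule is not reported here. The most similar genes were sought among genes at or above 3 in average log2 CPM, with a prior count of 2. Limits from 0 counts allow for counting error alone, because reads amplified by PCR without molecular tags do not each stand for a separate molecule.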

Additional observations from a re-analysis of the deposited data

How the results depend on the processing

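No paired analysis was possible because the labels tie no library of 1 group to a library of another. For the 9 members, 45 results gave 389 comparisons with settings other than leaving out a replicate. The test between regimes has no direction, so only its side of the threshold was compared. Of the 389, 365 kept direction and side of the threshold, 5 lost the call, 0 gained one and 19 changed sign. With 1 replicate left out these numbers were 587, 14, 0 and 47 of 648. All 5 lost calls were of Id3. Against land it was -4.58 in space with gravity with the dominant share as a covariate. For space without gravity it was -3.66 with that covariate, -3.31 with the dominant genes removed (adjusted p = 0.0502, edgeR), -3.29 in a fit of the compared groups only (adjusted p = 0.0745) and -1.09 with limma voom and sample quality weights (adjusted p = 0.425). Leaving out 1 replicate gave Id3 from -4.77 to -1.40 and from -3.66 to -0.86. For other named genes, 282 of 336 were kept, 30 lost, 15 gained and 9 changed sign, and with 1 replicate left out 313, 78, 6 and 11 of 408. For nanoceria, a fit of the compared groups only is the same fit, since all groups enter it. The cause of the changes below was not tested.

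Sign changes were of uncalled results. With voom, nanoceria differences were 0.28 for Id2 and -0.42 for Id3, and the gravity difference of Id2 was -0.21. Against land voom gave 1.19 for Tgfb2, 1.71 for Tgfb3, 0.33 for Smad6, 1.87 for Id2 and 0.020 for Tgfbr2 in space with gravity. It gave 1.09 for Tgfb2, 0.15 for Bmp4, 1.66 for Id2 and 0.20 for Tgfbr2 in space without gravity. With the dominant share as a covariate, nanoceria differences were 0.28 for Tgfb3 and 0.51 for Id2, and the gravity difference of Tgfb2 was 0.59. Against land that fit gave 0.19 for Tgfb1, -0.37 for Bmpr1a and 0.092 for Ccn2 with gravity, and -0.41 for Tgfb3, 0.091 for Tgfbr2 and -0.040 for Bmpr1a without. A mean of at least 50 counts gave Id2 0.085 for nanoceria and -0.094 for gravity, and Ccn2 -0.12 in space without gravity against land. Without a filter Tgfbr2 was 0.030 in space without gravity against land. Without the smallest library the gravity difference of Tgfb2 was 0.15. With DESeq2 size factors from genes counted in every library, Tgfb2 was 0.00040 for gravity and Ccn2 -0.16 in space without gravity against land.

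Leaving out each replicate in turn, nanoceria differences ranged from -0.52 to 0.25 for Tgfb1, -1.86 to 0.62 for Tgfb3, -1.59 to 0.011 for Smad6, -1.02 to 1.06 for Id2 and -0.46 to 1.52 for Id3. Gravity differences ranged from -0.50 to 0.093 for Tgfb1, -0.40 to 0.30 for Tgfb2, -0.26 to 2.61 for Tgfb3, -0.020 to 0.97 for Bmp4, -0.77 to 0.18 for Smad7, -0.39 to 0.13 for Id1 and -0.31 to 0.31 for Id2. Ranges for space with gravity against land were -0.56 to 1.43 for Tgfb2, -2.16 to 1.33 for Tgfb3, -1.19 to 0.22 for Smad6 and -0.92 to 1.22 for Id2. Ranges for space without gravity against land were -0.52 to 1.31 for Tgfb2, -1.10 to 2.63 for Tgfb3, -0.36 to 0.32 for Bmp4, -0.14 to 0.86 for Smad7, -0.94 to 1.27 for Id2, -0.25 to 0.18 for Tgfbr2 and -0.43 to 0.40 for Ccn2.

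Counts over all genes changed more. Without a filter, nanoceria called 214 genes, gravity withdrawal 229, the test between regimes 551 and space without gravity against land 1466, beside 0, 0, 0 and 607. DESeq2 called 11 for gravity and 1402 in space without gravity against land, and voom 989 there. The covariate left 1 and 6 calls in the comparisons with land, and fits of the compared groups only 1072 and 387. With 1 replicate left out the counts ran from 459 to 1614 and from 82 to 703. DESeq2 size factors from genes counted in every library, chosen after seeing the data, shifted the median of all genes to -0.39 and -0.28 against land and to 0.13 for gravity. They gave 628 higher and 1558 lower calls in space with gravity, beside 834 and 779, and 261 and 552 in space without gravity, beside 325 and 282. Pathway calls, also counted under settings chosen after seeing the data, were 7 and 0 without land with nanoceria replicate 3, 0 and 0 with the covariate and 14 in space without gravity with DESeq2. Over all genes the first of these settings gave 559 higher and 468 lower calls in space with gravity, and 53 and 46 in space without gravity. Depth limited Smad6, Id1, Id3 and Bmp4 most, with under 50 counts in 18, 18, 17 and 16 of 18 libraries.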
